A study of Mus musculus with 24 samples.

Results

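Hox genes encode homeodomain transcription factors that give cells along the head-to-tail axis their regional identity. All 39 gene symbols made of Hox, a cluster letter and a number were taken from the 43280 symbols in the files, without use of their values. They comprise 11 genes of cluster A, 10 of cluster B, 9 of cluster C and 9 of cluster D. Each number is a paralog group: low numbers are genes of one end of a cluster, active towards the head, and high numbers are genes of the other end, active towards the tail. Group 13 genes mark the most posterior gut, and HOXB13 and HOXA13 are known from the distal colon and rectum. Hox proteins bind DNA together with cofactors of the TALE class such as Meis and Pbx, and the Cdx factors of the intestinal epithelium act upstream of many Hox genes.

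RNA came from the distal part of the colon of SCID mice (C.B-17/Icr-scid/scid), which lack their own T and B cells and were 7 weeks old when bought, with 4 libraries in each of 6 groups. Normal mice had no listed treatment. Mice of the other groups were given 200000 activated CD4+ T cells of BALB/c mice on day 0, were graded for diarrhoea on day 17 and divided evenly, and colon was taken on day 28. Vehicle mice received 0.5% methylcellulose, and MEKi 0.3 and MEKi 1 mice an oral microparticle form of a MEK inhibitor at 0.3 or 1 mg/kg once daily from day 17 to 27. Isotype and anti-TNF mice received 0.1 mg of a control or an anti-TNFa antibody every 4 days from day 17. The labels number the libraries of each group from 1 to 4 without saying what equal numbers share, and they do not give the exact site of each piece of colon. P-values measure the spread between these libraries.

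Libraries held 3052940 to 10587555 counts, of which 1688 to 7382 fell on Hox genes. The names in a table of the whole series disagreed with the single-sample files for 16 of 24 libraries. Groups here follow the single-sample files. In the series names, all 4 Vehicle libraries are called MEK inhibitor and all 4 MEKi 0.3 libraries Normal or Vehicle. Replicates 1 and 2 of MEKi 1 are called MEKi 0.3 there, and replicates 3 and 4 of Normal are called Vehicle. The Vehicle and MEK inhibitor comparisons below therefore rest on the single-sample names. For 4 antibody libraries (3 and 4 of Isotype, 1 and 2 of anti-TNF) the counts do not settle which is right. Smooth muscle markers, 9 genes in all, summed to 6780 to 8638 CPM (counts divided by the library total and scaled to 1000000) in Normal and to 1531 to 3454 CPM in Vehicle, and all 9 fell. The 9 epithelial markers summed to 12741 to 17652 CPM in Normal and 13476 to 18679 CPM in Vehicle; 2 of them rose and 2 fell, among the latter Cdh1 at -0.76 ± 0.12 on the log2 scale (SE). Pancreas markers reached 5714 CPM in Vehicle replicate 4 and 4555 CPM in Isotype replicate 1. In such bulk tissue, fewer cells of a type and less RNA per cell cannot be told apart, and the part of cell mixture in the results below was not tested.

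The 4 promoters that follow are shown because their genes differed between Vehicle and Normal in opposite directions: Hoxa13 and Hoxd13 were lower, Hoxa7 and Hoxa9 higher. Each lies within the 250 bases before the RefSeq transcription start (GRCm38.p6), printed 5′ to 3′ on the gene's strand, and capitals mark CG pairs. The windows are chr6:52260881-52261130 on the minus strand for Hoxa13, chr2:74667975-74668224 on the plus strand for Hoxd13, chr6:52218712-52218823 on the minus strand for Hoxa7 and chr6:52227371-52227620 on the minus strand for Hoxa9. For Hoxa7 only the first 112 of the 250 bases are printed, since annotated exon sequence follows.
Hoxa13: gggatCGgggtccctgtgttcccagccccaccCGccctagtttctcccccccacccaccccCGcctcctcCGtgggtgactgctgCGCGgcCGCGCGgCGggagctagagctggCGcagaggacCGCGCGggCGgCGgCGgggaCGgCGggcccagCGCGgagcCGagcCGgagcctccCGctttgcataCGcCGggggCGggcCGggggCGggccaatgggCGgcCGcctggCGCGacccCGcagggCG
Hoxd13: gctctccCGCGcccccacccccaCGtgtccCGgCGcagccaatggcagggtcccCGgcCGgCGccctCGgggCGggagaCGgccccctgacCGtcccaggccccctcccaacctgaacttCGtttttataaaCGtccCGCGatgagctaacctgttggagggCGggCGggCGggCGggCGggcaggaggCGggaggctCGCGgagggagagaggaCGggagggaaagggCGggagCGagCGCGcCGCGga
Hoxa7: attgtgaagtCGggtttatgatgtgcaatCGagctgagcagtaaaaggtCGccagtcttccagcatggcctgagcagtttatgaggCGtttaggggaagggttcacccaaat
Hoxa9: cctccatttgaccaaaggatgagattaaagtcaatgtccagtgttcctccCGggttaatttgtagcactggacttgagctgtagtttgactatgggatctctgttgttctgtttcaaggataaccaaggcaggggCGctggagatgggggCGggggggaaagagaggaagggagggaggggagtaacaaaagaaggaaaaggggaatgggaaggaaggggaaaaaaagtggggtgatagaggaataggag
Over 250 bases, the Hoxa13 promoter held 35 CG pairs and that of Hoxd13 held 31, while those of Hoxa7 and Hoxa9 held 7 and 3. Of 32851 RefSeq windows of this length, the median held 6 pairs, 5.19% held 31 or more and 57.0% held 7 or fewer. The table had an entry for 22 Hox genes. The Hoxa7 and Hoxa9 windows lie inside the annotated spans of these genes, whose 5′ ends are at 52221854 and 52231089. Those of Hoxa13 and Hoxd13 lie outside theirs, before the 5′ ends at 52260880 and 74668310. The counts thus set starts inside a gene's span against starts at its edge. Hoxb13 and the other genes called lower are not shown. These counts describe 4 sequences and carry no test.

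In Normal colon, transcripts of clusters A, B and D were present and those of cluster C were nearly absent. Over all 24 libraries, cluster B gave 61.0% of 88585 Hox counts, cluster A 33.5%, cluster D 5.47% and cluster C 0.061%, or 54 counts. Hoxb1, Hoxc10, Hoxc12, Hoxc13 and Hoxd1 had no count in any library, where 3 counts over all libraries would be 0.0218 CPM. A mean of at least 1 CPM in Normal was reached by 22 genes, and of at least 10 CPM by 9. All 11 genes of cluster A were among the 22, with 7 of cluster B and 4 of cluster D.

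Compared per length of transcript, Hoxb13 was the highest in Normal colon at 211 CPM per kb, ahead of Hoxa13 at 47.9, Hoxa7 at 44.7, Hoxa10 at 20.8, Hoxd13 at 19.97, Hoxb9 at 17.7 and Hoxa9 at 14.49 CPM per kb. The next gene, Hoxa5, was at 7.67 CPM per kb. Group 13 genes thus held the highest level within each of clusters A, B and D, as the grid of levels by cluster and paralog group shows. In cluster B the step was steep: Hoxb8 was at 0.243, Hoxb9 at 17.7 and Hoxb13 at 211 CPM per kb. Cluster A was graded differently, with high values for Hoxa7 and for Hoxa9 to Hoxa13 apart from Hoxa11 at 3.07 CPM per kb. When all annotated exons of a gene were used as its length, Hoxa13 stayed second at 25.4 CPM per kb, but Hoxa7 moved from place 3 to 5 at 14.48 CPM per kb, and Hoxd13 from place 5 to 3.

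**Figure D1:**
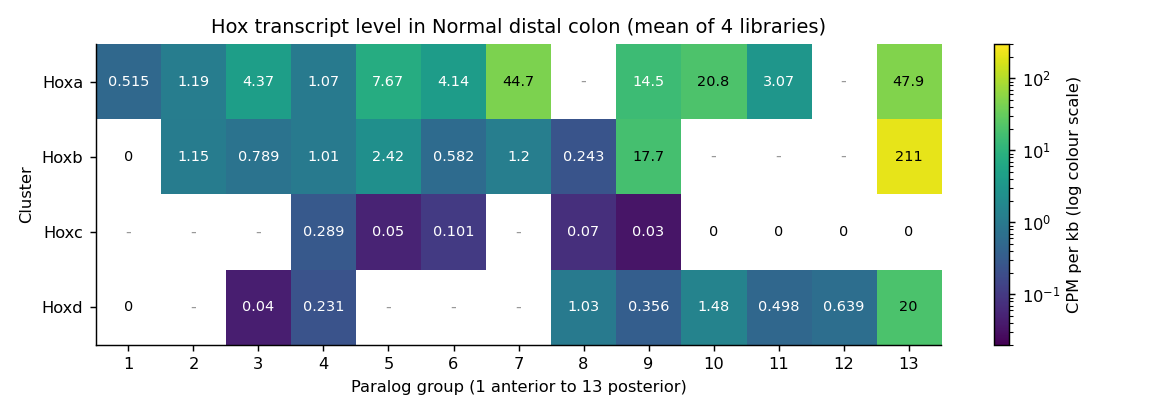
Level of each Hox gene in Normal distal colon in CPM per kb of transcript, mean of 4 libraries, by cluster (rows) and paralog group (columns); a dash marks a gene that the mouse lacks and 0 a gene with no count in Normal. Group 13 is highest in rows A, B and D, led by Hoxb13 at 211 CPM per kb, and row C is at or near 0.

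A level of about 2.05 CPM in at least 4 libraries was needed for a test, and 16 Hox genes passed: Hoxa2, Hoxa3, Hoxa5, Hoxa6, Hoxa7, Hoxa9, Hoxa10, Hoxa11, Hoxa13, Hoxb4, Hoxb5, Hoxb9, Hoxb13, Hoxd10, Hoxd12 and Hoxd13. Of these, 10 were above that level in all 24 libraries. Hoxb4, Hoxb5, Hoxd10 and Hoxd12 were above it in 3 or 4 Normal libraries and in no Vehicle library, so that they entered the test largely through the group where they are high. The other 23 genes stayed at or under 3.93 CPM in every library and were not tested, 18 of them with at least 1 count.

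Colitis without treatment was first compared as Vehicle against Normal. Hoxb13, Hoxa13 and Hoxd13 were lower in the inflamed colon, while Hoxa7 and Hoxa9 of the middle of cluster A were higher. By edgeR's quasi-likelihood test with Benjamini-Hochberg adjustment over 14773 genes, 9 of the 16 tested Hox genes passed an adjusted p of 0.05, 2 higher and 7 lower. The background was high, since 46.4% of all genes passed, 23.1% higher and 23.3% lower. The lower calls include Hoxb5, Hoxd10 and Hoxd12, which entered the test largely through Normal, so this count is no measure of the whole family. Of the 10 Hox genes above the level in every library, 6 passed, 2 higher and 4 lower; their median log2 fold change was -0.17, against 0 over all genes tested.

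Hoxb13 is the gene at the posterior end of cluster B. It measured 469, 400, 461 and 529 CPM in the Normal libraries and 219, 305, 288 and 138 CPM in Vehicle. Every Vehicle library lay below every Normal library, and the log2 fold change was -1.0 ± 0.27 (SE, adjusted p = 0.00497, edgeR). Hoxa13, its counterpart in cluster A, measured 56.5, 80.3, 61.6 and 52.7 CPM in Normal and 30.9, 34.7, 39.2 and 21.5 CPM in Vehicle. Again the groups did not overlap, and the log2 fold change was -1.02 ± 0.23 (SE, adjusted p = 0.0012, edgeR). Both calls held when any 1 library was left out. Over all genes, ranges without overlap were found for 23.3% higher and 20.1% lower in Vehicle, against 2 and 5 of the 16 Hox genes. The 5 include Hoxb5 and Hoxd10, which entered the test largely through Normal.

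Hoxd13, the posterior end of cluster D, varied widely. Normal libraries held 79.9, 55.4, 32.8 and 30.2 CPM and Vehicle libraries 2.13, 14.04, 2.19 and 2.74 CPM, so that the groups did not overlap although Vehicle replicate 2 stood well above the other Vehicle libraries. The log2 fold change was -3.21 ± 1.07 (SE, adjusted p = 0.0198, edgeR); without Vehicle replicate 1, 3 or 4 the adjusted p was 0.0555, 0.0537 and 0.0543. Hoxd10 measured 3.90, 2.62, 2.61 and 1.65 CPM in Normal and 0.853, 0.569, 0.244 and 0.843 CPM in Vehicle. Its log2 fold change of -2.09 ± 0.81 (SE, adjusted p = 0.0376, edgeR) missed the threshold when any 1 of 7 libraries was left out, that is, all but Normal replicate 4. Hoxd10 was above the level for a test in 3 Normal libraries and 0 Vehicle libraries, so its p-value is given as a description only. Hoxd12, which entered the same way and had only 2 counts in Vehicle, is described without a test. It had 10, 0, 11 and 11 counts in Normal and 0, 1, 0 and 1 in Vehicle. From the summed counts of 32 and 2, Normal was 16.8 times as high, with a 95% exact counting interval of 4.29 to 145 that covers counting error only.

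In the middle of cluster A the direction was the opposite. Hoxa7 measured 33.6, 40.9, 44.6 and 25.1 CPM in Normal and 55.5, 52.5, 62.2 and 58.4 CPM in Vehicle. Hoxa9 measured 30.1, 33.1, 35.6 and 19.3 CPM in Normal and 44.8, 39.1, 44.8 and 43.8 CPM in Vehicle. Neither gene's groups overlapped, and both rose. The log2 fold changes were 0.63 ± 0.19 for Hoxa7 (SE, adjusted p = 0.00953, edgeR) and 0.51 ± 0.14 for Hoxa9 (SE, adjusted p = 0.00523, edgeR). With an offset for transcript length the change of Hoxa7 was 0.38 ± 0.19 and missed the threshold (adjusted p = 0.11, edgeR), while that of Hoxa9 kept its call.

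Hoxa10, which lies between Hoxa9 and Hoxa13 in the cluster, measured 42.4, 41.6, 45.2 and 37.0 CPM in Normal and 54.2, 42.5, 42.4 and 39.8 CPM in Vehicle. Its groups overlapped, and the log2 fold change was 0.06 ± 0.13 (SE). Hoxa11 measured 8.44, 6.88, 8.02 and 4.73 CPM against 12.2, 5.31, 8.53 and 9.69 CPM, with a log2 fold change of 0.30 ± 0.28 (SE). Hoxb9 measured 44.8, 38.7, 43.9 and 44.4 CPM against 42.2, 36.4, 46.6 and 40.0 CPM, with a log2 fold change of -0.10 ± 0.15 (SE). None of these 3 genes passed the threshold, while Hoxa9 and Hoxa13, on either side of Hoxa10 and Hoxa11, moved in opposite directions.

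Towards the anterior ends, Hoxa3 measured 10.6, 11.46, 16.6 and 6.58 CPM in Normal and 6.83, 6.45, 8.77 and 6.32 CPM in Vehicle. The groups overlapped, and the log2 fold change of -0.71 ± 0.25 (SE, adjusted p = 0.0239, edgeR) missed the threshold without Normal replicate 3, where it was -0.47, or without Vehicle replicate 1, 2 or 4. Hoxb5 measured 6.28, 4.91, 4.67 and 2.47 CPM in Normal and 1.92, 1.14, 1.46 and 1.47 CPM in Vehicle, with a log2 fold change of -1.64 ± 0.62 (SE, adjusted p = 0.0335, edgeR) that was lost without any 1 of Normal replicates 1, 2 and 3 or Vehicle replicates 2, 3 and 4. Hoxb5 entered the test largely through Normal, so its p-value is given as a description only. Hoxa5 measured 13.9, 20.3, 12.5 and 10.9 CPM against 13.7, 12.3, 11.2 and 12.01 CPM and did not pass. Of the 9 Hox calls, 5 remained without Vehicle replicate 4 and Isotype replicate 1, the libraries with pancreas transcripts. Of these, 2 were higher and 3 lower, and the share of all genes called in that fit is not given here.

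Isotype mice, the second untreated colitis group, were compared with the same Normal libraries, so both comparisons share their controls. Here 5 of 16 Hox genes passed, 1 higher and 4 lower, against a background of 41.2% of all genes, 20.9% higher and 20.3% lower. Without Hoxb5 and the others that were not above the level in every library, 4 of 10 passed, 1 higher and 3 lower. Hoxb13 measured 218, 326, 256 and 351 CPM, all below Normal, with a log2 fold change of -0.74 ± 0.27 (SE, adjusted p = 0.0338, edgeR). Hoxa13 measured 23.0, 41.1, 30.6 and 45.2 CPM, also all below Normal, with a log2 fold change of -0.88 ± 0.23 (SE, adjusted p = 0.00421, edgeR). For Hoxb13 the threshold was missed without any 1 of Normal replicates 1, 3 and 4 or Isotype replicates 1 and 3, with adjusted p = 0.111 without Isotype replicate 1 (edgeR). For Hoxa13 it held in each case. With the 2 Normal and 2 Isotype libraries on which both labellings agree, no Hox gene passed. Hoxa13 was then at -1.19 ± 0.33 (SE, adjusted p = 0.0557, edgeR).

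Hoxa9 rose in Isotype as well, at 46.9, 43.5, 34.4 and 42.9 CPM and a log2 fold change of 0.46 ± 0.14 (SE, adjusted p = 0.011, edgeR); without Normal replicate 4 the change was 0.32 and the adjusted p 0.0575. Hoxa7 measured 49.6, 41.1, 65.6 and 42.8 CPM, overlapping Normal, and its change of 0.44 ± 0.19 (SE) did not pass (adjusted p = 0.0674, edgeR). Hoxb5 measured 0.825, 1.33, 0 and 1.13 CPM, with a log2 fold change of -2.43 ± 0.61 (SE, adjusted p = 0.00325, edgeR). It was above the level for a test in 4 Normal libraries and 0 Isotype libraries. Hoxb5 thus entered largely through Normal, and its p-value is given as a description only. Hoxb9 measured 24.6, 36.0, 26.2 and 41.8 CPM and had a log2 fold change of -0.46 ± 0.15 (SE, adjusted p = 0.0195, edgeR); without Isotype replicate 1 it was -0.33 with an adjusted p of 0.0894, and the call was also lost without Normal replicate 4 or Isotype replicate 3. Ranges without overlap were found for 3 Hox genes, all lower and Hoxb5 among them, against 16.2% lower and 20.3% higher among all genes.

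None of the tested cluster D genes passed in Isotype. Hoxd13 measured 17.3, 55.6, 3.42 and 80.0 CPM, a range that spans that of Normal, with a log2 fold change of -0.39 ± 0.90 (SE, adjusted p = 0.759, edgeR). Replicates 2 and 4 lay at or above the Normal mean of 49.6 CPM, and replicate 3 lay within the range of Vehicle. Hoxd10 and Hoxd12 did not pass, at -0.88 ± 0.67 and -1.75 ± 0.78 (SE). Isotype set directly against Vehicle gave no Hox call by edgeR, where 2.99% of all genes passed (1.32% higher, 1.67% lower). DESeq2 and limma-voom gave 1 Hox call each, where they called 5.31% and 19.7% of all genes. For Hoxd13 the difference between both groups was 2.83 ± 1.05 on the log2 scale (SE, adjusted p = 0.157, edgeR). Only the range of Hoxa6 did not overlap, being higher in Isotype, against 5.75% of all genes higher and 6.44% lower.

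**Figure D2:**
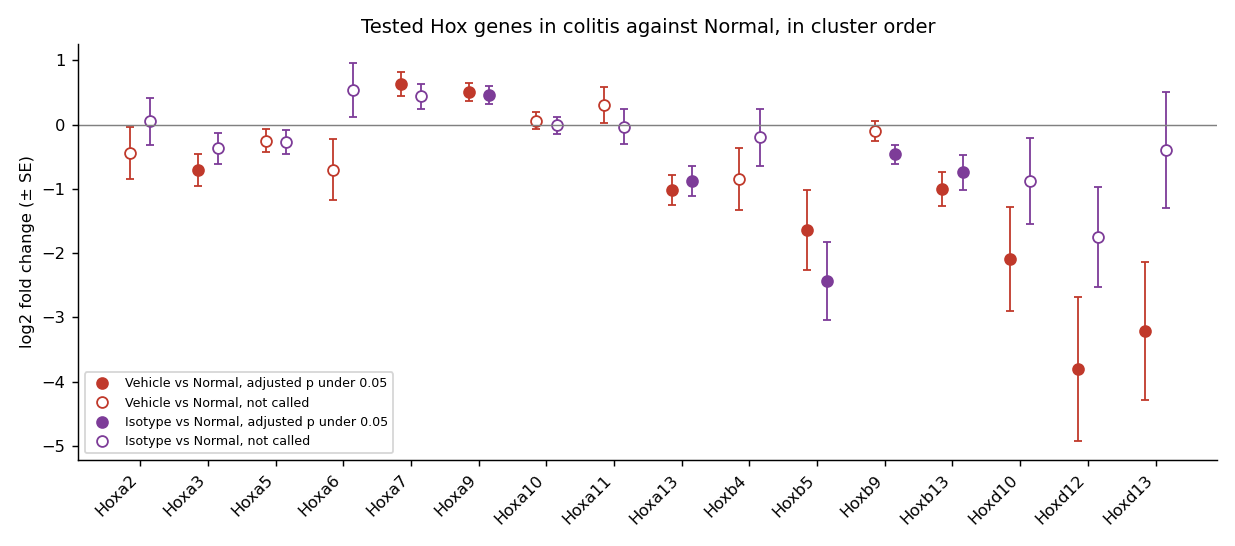
Log2 fold change (± SE) of the 16 tested Hox genes in Vehicle and in Isotype against the same Normal libraries, ordered along clusters A, B and D; filled points passed an adjusted p of 0.05. Hoxa7 and Hoxa9 lie above 0 and Hoxa13 and Hoxb13 below 0 in both. Hoxd13 lies at -3.21 in Vehicle and -0.39 in Isotype. Filled points of Hoxb5, Hoxd10 and Hoxd12 are a description only, since these genes entered the test largely through Normal. Fitted values of Hoxd12 rest on 2 Vehicle counts.

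Treatment was compared within colitis. With the MEK inhibitor at 1 mg/kg no Hox gene passed by edgeR, where 10.6% of all genes did, 6.08% higher and 4.51% lower. DESeq2 called 2 Hox genes and limma-voom 5, all higher, where these tools called 15.6% and 32.5% of all genes. Hoxb13 measured 482, 400, 406 and 344 CPM, every library above every Vehicle library, with a log2 fold change of 0.81 ± 0.27 (SE, adjusted p = 0.0557, edgeR). Hoxa13 measured 57.9, 37.4, 55.1 and 50.4 CPM, overlapping Vehicle, with 0.71 ± 0.24 (SE, adjusted p = 0.0519, edgeR). Both genes passed by DESeq2 (adjusted p = 0.0285 and 0.0333) and by limma-voom (0.00633 and 0.0042). They also passed when edgeR was given just the MEKi 1 and Vehicle libraries (0.0313 and 0.0355). In 7 other settings Hoxb13 did not pass, and in 6 others Hoxa13 did not. Hoxb13 also missed the threshold whichever library was left out. Hoxb9 measured 54.3, 51.3, 47.2 and 52.9 CPM, again without overlap with Vehicle, with 0.36 ± 0.15 (SE, adjusted p = 0.116, edgeR). Ranges higher without overlap were found for 2 Hox genes, against 8.35% of all genes, and lower for 0, against 10.3%. Markers of other cells moved in the same comparison: 4 of 4 neutrophil, 4 of 7 T cell and 3 of 5 macrophage markers fell and 2 of 9 smooth muscle markers rose. Summed neutrophil markers were 428 to 1055 CPM in Vehicle and 16.9 to 148 CPM with 1 mg/kg, and smooth muscle markers 1531 to 3454 and 2384 to 4382 CPM; their part in the Hox values was not tested.

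Hoxa7 and Hoxa9, the genes that were higher in colitis, measured 47.4, 54.3, 49.5 and 47.5 CPM and 35.4, 42.8, 40.8 and 33.4 CPM with 1 mg/kg. Their log2 changes against Vehicle were -0.16 ± 0.19 and -0.14 ± 0.14 (SE), with adjusted p = 0.597 and 0.53 (edgeR). Hoxd13 measured 21.0, 9.62, 18.4 and 21.1 CPM, of which 3 libraries lay above all of Vehicle. Its change of 1.72 ± 1.09 (SE, adjusted p = 0.293, edgeR) did not pass.

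At 0.3 mg/kg no Hox gene passed by edgeR, against 0.00677% of all genes. DESeq2 called 1 Hox gene and limma-voom 2, where these tools called 0.73% and 22.4% of all genes. Hoxb13 measured 431, 452, 350 and 145 CPM: 3 libraries lay above Vehicle and replicate 4 among its lowest. The log2 fold change was 0.55 ± 0.27 (SE, adjusted p = 0.288, edgeR), and without replicate 4 it was 0.81 ± 0.22 with an adjusted p of 0.0354. Hoxd13 measured 33.2, 12.6, 172 and 4.46 CPM, the widest spread of any group, with 3.38 ± 1.07 (SE, adjusted p = 0.193, edgeR). Replicate 3 exceeded every other library of the study for Hoxd13, and it had the highest Hoxd10 of all at 7.17 CPM. Ranges did not overlap for 1 Hox gene, Hoxd12, which was higher, against 4.11% of all genes higher and 3.53% lower. Hoxd12 had 3, 4, 15 and 1 counts here and 0, 1, 0 and 1 in Vehicle. The gap between the ranges thus lies between libraries with 1 count each and reflects only their totals.

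With the anti-TNF antibody, no Hox gene passed against Isotype by edgeR, where 0.0203% of all genes did. Neither DESeq2 nor limma-voom called any, against 0.576% and 0.305% of all genes. Hoxb13 measured 255, 385, 343 and 410 CPM and Hoxa13 33.1, 50.9, 45.8 and 65.9 CPM, each overlapping Isotype, with log2 changes of 0.29 ± 0.27 and 0.50 ± 0.23 (SE). Hoxd13 measured 5.02, 11.3, 7.61 and 30.1 CPM, with -1.51 ± 0.94 (SE, adjusted p = 0.573, edgeR). The ranges of all 16 Hox genes overlapped, where those of 1.62% of all genes were higher and of 3.61% lower without overlap. The difference between the effects of 1 mg/kg MEK inhibitor and of anti-TNF was called for no Hox gene by edgeR, DESeq2 or limma-voom. These tools called 0.0135%, 0.0601% and 8.72% of all genes. For Hoxb13 that difference was 0.52 ± 0.38 (SE) on the log2 scale.

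**Figure D3:**
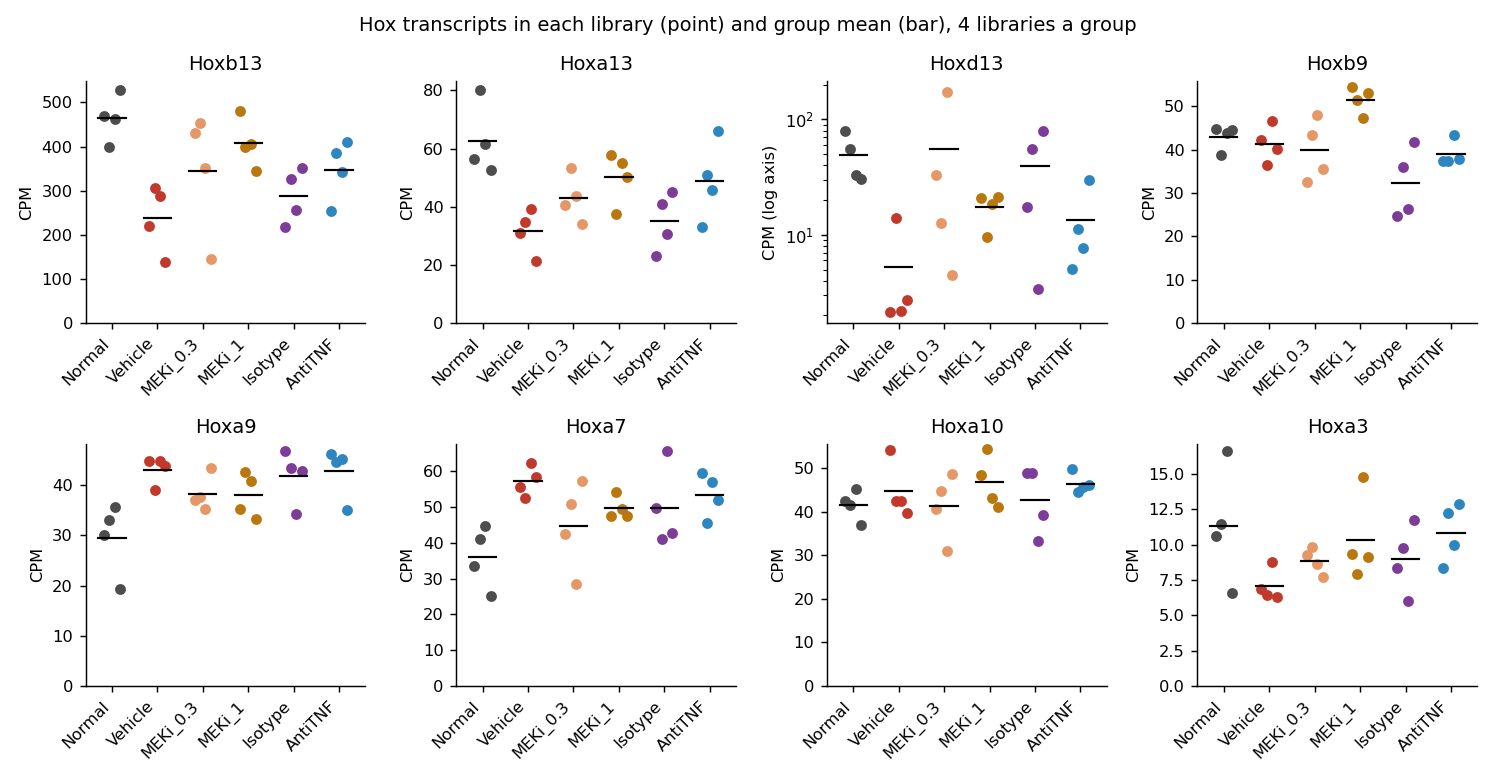
CPM of 8 Hox genes in each library (points) with the mean of 4 (bar) in the 6 groups; the Hoxd13 axis is logarithmic and the others start at 0. Hoxb13 and Hoxa13 are highest in Normal and lowest in Vehicle by group mean, Hoxa7 and Hoxa9 are lowest in Normal, and Hoxd13 ranges from 4.46 to 172 CPM within the MEKi 0.3 group.

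The balance among paralog groups was described by shares of the Hox counts of each library, with no test. Group 13 made up 72.9% ± 3.66 (SD, n = 4) in Normal, 53.2% ± 9.20 in Vehicle, 64.8% ± 14.1 in MEKi 0.3, 66.3% ± 2.19 in MEKi 1, 61.8% ± 6.63 in Isotype and 63.1% ± 5.87 in anti-TNF. All Normal libraries lay at 70.0% or above and all Vehicle libraries at 62.8% or below. The share of groups 5 to 8 was 8.08% ± 1.75 in Normal and 15.4% ± 2.96 in Vehicle, and that of groups 9 to 12 was 16.0% ± 1.42 and 28.4% ± 5.77. Groups 1 to 4 held 3.03% ± 0.793 and 2.96% ± 0.675, nearly the same share. All of these are shares of a total that was lower in Vehicle. An equal share is therefore a lower level in CPM, and a higher share need not be a higher level. Summed Hox transcripts were 791.5 CPM ± 23.0 in Normal and 505 CPM ± 83.8 in Vehicle, and the ranges of 765 to 821 and 389 to 569 CPM did not overlap. Hoxb13 alone had a mean of 464.7 CPM ± 52.8 in Normal and 237.6 CPM ± 76.1 in Vehicle.

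**Figure D4:**
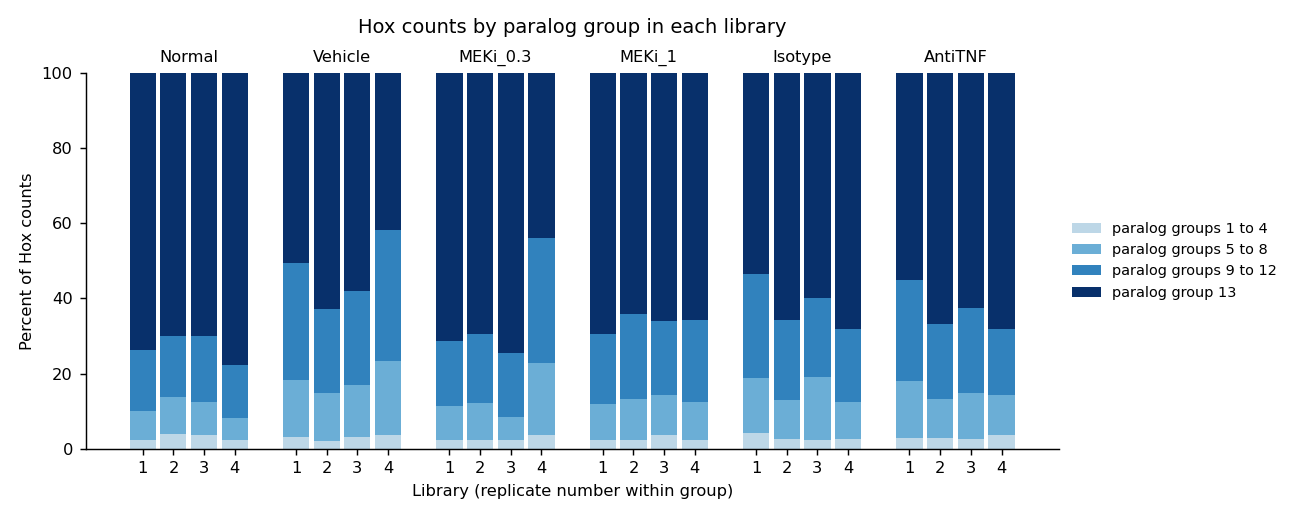
Percent of the Hox counts of each library in paralog groups 1 to 4, 5 to 8, 9 to 12 and 13, with 4 libraries (bars) per group. Group 13 takes at least 70.0% in each Normal library and at most 62.8% in each Vehicle library; MEKi 0.3 replicate 4, at 43.8%, is the lowest of its group.

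Within groups, libraries differed together for some pairs of genes. The deviations of 24 libraries from their group means, on a log2 scale, correlated at r = 0.66 between Hoxb13 and Hoxa13, at 0.76 between Hoxd13 and Hoxd10 and at 0.51 between Hoxb13 and Hoxd13. Hoxd13 and Hoxa7 went the other way at -0.73. These values describe libraries that share depth and cell mixture, and carry no test. With the smooth muscle gene Myh11, r was 0.48 for Hoxb13, 0.59 for Hoxa13, 0.59 for Hoxd13 and -0.48 for Hoxa10. The genes most like Hoxb13 by this measure, out of all tested, were Ilvbl (r = 0.946), Tradd (0.935), Pcx (0.927), AI854703 (0.919) and B3gnt7 (0.914), over 24 libraries.

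Of 16 listed non-coding transcripts of the clusters, 5 were tested, and these 5 fell in Vehicle against Normal, where 23.3% of all genes did. Only Hoxa11os, Hottip and Hoxaas3 were above the level for a test in every library; Hoxb5os and Mir196a-1 entered largely through groups other than Vehicle. Hoxa11os, the antisense transcript of Hoxa11, measured 74.5, 60.3, 65.5 and 53.5 CPM in Normal and 26.4, 27.3, 29.7 and 19.6 CPM in Vehicle, a log2 fold change of -1.34 ± 0.24 (SE, adjusted p = 0.00016, edgeR). Hottip, transcribed from the posterior end of cluster A next to Hoxa13, measured 35.7, 24.9, 34.3 and 32.5 CPM and 6.83, 11.2, 14.4 and 5.90 CPM, at -1.78 ± 0.30 (SE, adjusted p = 8.86e-05, edgeR). Neither overlapped. Whether the counting used strand is not given in the sources used here, so reads of Hoxa11os and of Hoxa11 cannot be told apart where both overlap, nor those of Hoxaas3 and Hoxb5os from the Hox genes they overlap.

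In Isotype, 4 of these 5 transcripts fell, against 20.3% of all genes. Among the 5, Hoxb5os was above the level for a test in 3 Normal libraries and 0 Isotype libraries. It thus entered largely through Normal, and the count is no measure of all 5. Hoxa11os was at -1.07 ± 0.24 and Hottip at -1.68 ± 0.29 (SE). With 1 mg/kg MEK inhibitor both passed in the other direction against Vehicle. Hoxa11os measured 77.6, 41.9, 56.6 and 48.2 CPM, with a log2 fold change of 1.16 ± 0.24 (SE, adjusted p = 0.0114, edgeR), and Hottip 22.6, 16.9, 25.5 and 13.2 CPM, with 1.07 ± 0.31 (SE, adjusted p = 0.0328, edgeR). Without Vehicle replicate 4 or MEKi 1 replicate 1 the adjusted p of Hoxa11os was 0.0529 and 0.0618. For Hottip the threshold was missed without any 1 of Vehicle replicates 1, 2 and 4 or MEKi 1 replicates 1 and 3, with adjusted p up to 0.113 (edgeR). With anti-TNF against Isotype neither passed. Hottip measured 14.3, 20.2, 18.1 and 28.1 CPM against 4.83, 13.98, 8.14 and 13.8 CPM, without overlap, at 0.99 ± 0.29 (SE, adjusted p = 0.227, edgeR), and Hoxa11os was at 0.66 ± 0.24 (SE, adjusted p = 0.3, edgeR). The effect of 1 mg/kg MEK inhibitor minus that of anti-TNF was 0.07 ± 0.42 for Hottip and 0.51 ± 0.34 for Hoxa11os (SE), and neither passed. Within groups Hoxa11os followed Hoxa13 (r = 0.85 over 24 libraries), with the same lowest library in 6 of 6 groups and the same highest in 5.

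Genes that flank the clusters were mixed: of 13 tested, 2 rose and 3 fell in Vehicle against Normal, near or below the 23.1% and 23.3% of all genes. Ttll6, a tubulin polyglutamylase gene beside Hoxb13, measured 33.8, 35.7, 58.2 and 41.5 CPM in Normal and 1.71, 7.21, 6.09 and 2.53 CPM in Vehicle, at -3.30 ± 0.77 (SE, adjusted p = 0.00212, edgeR). In Isotype it was at -2.93 ± 0.72 (SE), and with 1 mg/kg MEK inhibitor at 2.64 ± 0.78 against Vehicle (SE, adjusted p = 0.0385, edgeR), a call lost without any 1 of the Vehicle libraries or without MEKi 1 replicate 1 or 3 (adjusted p up to 0.121, edgeR). It followed Hoxb13 within groups at r = 0.85. Skap1, an adaptor of T cells at the other end of cluster B, rose by 3.57 ± 0.37 (SE), beside T cell markers that summed to 11.9 to 15.5 CPM in Normal and 109 to 157 CPM in Vehicle. Evx2, next to Hoxd13, changed by -2.25 ± 1.01 (SE) and did not pass (adjusted p = 0.0709, edgeR).

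Among the partners of Hox proteins, 4 of 8 tested TALE genes fell in Vehicle and none rose, against 23.3% and 23.1% of all genes. Meis1 measured 12.99, 12.1, 12.5 and 7.61 CPM in Normal and 2.77, 2.66, 4.87 and 4.00 CPM in Vehicle, a log2 fold change of -1.70 ± 0.39 (SE, adjusted p = 0.00132, edgeR). Meis2 and Pbx3 changed by -1.63 ± 0.37 and -0.72 ± 0.18 (SE). The same number, 4 of 8, fell in Isotype, against 20.3% of all genes. The fall of smooth muscle markers given above accompanies these values, and markers of enteric neurons and glia, of which 7 of 8 tested fell, summed to 81.9 to 95.0 CPM in Normal and 19.7 to 48.2 CPM in Vehicle.

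Of the Cdx factors of the epithelium, 1 passed in Vehicle and none in Isotype. Cdx2 measured 66.0, 89.4, 83.6 and 74.0 CPM in Normal and 153, 75.5, 139 and 142 CPM in Vehicle, overlapping, with 0.66 ± 0.24 (SE, adjusted p = 0.0281, edgeR), a call lost without any 1 of Normal replicates 1 and 4 or Vehicle replicates 1, 3 and 4 (adjusted p up to 0.0773, edgeR). In Isotype its change was 0.25 ± 0.24 (SE, adjusted p = 0.412, edgeR). Cdx1 changed by 0.19 ± 0.15 in Vehicle (SE) and did not pass. Within groups r between Cdx2 and Hoxb13 was -0.62.

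**Figure D5:**
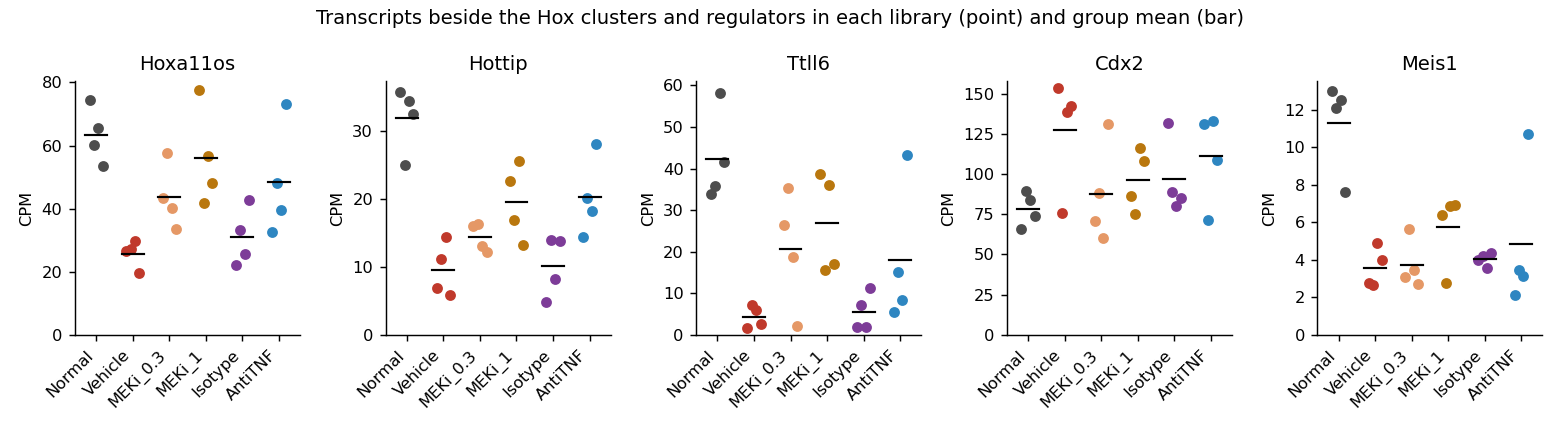
CPM of Hoxa11os, Hottip, Ttll6, Cdx2 and Meis1 in each library (points) with the mean of 4 (bar); all axes start at 0. The first 3 and Meis1 lie lower in every Vehicle library than in any Normal library, whereas Cdx2 spreads from 75.5 to 153 CPM in Vehicle.

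Regulators of the clusters were tested gene by gene and counted by list. Of 21 genes for Polycomb, Trithorax and related chromatin proteins, 2 rose and 7 fell in Vehicle, with a median log2 fold change of -0.19, where 23.1% and 23.3% of all genes rose and fell. Among them Cbx2, Ezh1, Rnf2 and Kmt2a changed by -1.01 ± 0.22, -0.74 ± 0.17, -0.88 ± 0.21 and -0.73 ± 0.19 (SE). In Isotype 2 rose and 1 fell, against 20.9% and 20.3% of all genes. Of 12 tested genes of the retinoic acid pathway, which induces Hox genes in embryos, 1 rose and 4 fell in Vehicle, against 23.1% and 23.3% of all genes. The synthetic enzyme Aldh1a1 changed by -2.36 ± 0.27 and the receptor Rarb by -2.11 ± 0.63 (SE).

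Whether the pieces of colon came from different positions was examined with genes that mark neighbouring gut. Markers of the anorectal squamous lining, 9 genes, summed to 1.14 to 15.4 CPM over all libraries, and 8 markers of the small intestine to 2.99 to 19.8 CPM; none of the 2 tested genes of either list passed in Vehicle or Isotype against Normal. Scnn1b, a subunit of the sodium channel of distal colon, measured 15.8, 17.0, 37.5 and 45.2 CPM in Normal and 5.12, 4.55, 2.68 and 11.8 CPM in Vehicle, at -2.32 ± 0.75 (SE, adjusted p = 0.0165, edgeR). Without Normal replicate 4 or Vehicle replicate 3 its adjusted p was 0.0534 and 0.0509, and Scnn1g did not pass at -1.92 ± 0.80 (SE, adjusted p = 0.0531, edgeR). In Isotype Scnn1b measured 2.95, 6.27, 14.5 and 10.3 CPM, again below all of Normal, at -1.81 ± 0.71 (SE, adjusted p = 0.0465, edgeR), a call lost without any 1 of Normal replicates 3 and 4 or Isotype replicates 1, 2 and 4 (adjusted p up to 0.138, edgeR). Scnn1g was at -1.78 ± 0.76 in Isotype (SE, adjusted p = 0.0646, edgeR). Within groups r with Scnn1b was 0.38 for Hoxb13 and 0.23 for Hoxd13, and Scnn1b shared its highest library with Hoxb13 in 3 of 6 groups and its lowest in 3. The labels name the distal part of the colon but not the exact site of each piece. A change with colitis and a change with the sampled site therefore cannot be told apart.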

How the data were processed

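Poly(A) RNA of 24 colon samples was sequenced on an Ion Torrent instrument per the labels' protocols, with RNase III used for fragmentation. The authors deposited raw counts per gene symbol, on mm10 (per the submitters' processing notes). Which aligner and counter made them, and whether strand was used, is not given in the sources used here. Groups come from each sample's own file. Library totals were 3052940 to 10587555, and no pair of replicates was a duplicate (chi-square per gene 5.38 to 59.9).

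Tests used R 4.3.3 and edgeR 4.0.16, with 14773 genes kept by filterByExpr, TMM factors, 1 robust quasi-likelihood fit of all 24 libraries, Benjamini-Hochberg adjustment within each of 7 comparisons and a threshold of 0.05. SE was obtained as |log2 fold change| over √F. CPM is a count over the library total, scaled to 1000000; CPM per kb uses the median transcript length in GENCODE M21. DESeq2 1.42.0, limma-voom (limma 3.58.1), other factors and filters, a length offset and the replicate number as a block were tried. The scripts were tested on simulated data, where changes of the smaller size set were missed for part of the genes, so a gene that did not pass is not shown to be unchanged.

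The Hox genes, the lists and the tests were chosen with earlier results of these data known. Library values are given for Hox genes called in any comparison or among the 10 highest in Normal, for some of them in part of the groups only. Listed genes were named by smallest p (at most 4 per list), with Cdx1, Cdx2 and Meis1 always, and some by fold change only. Genes like Hoxb13 were ranked by Pearson r of within-group deviations of normalised log2 CPM with a prior count of 2. The other within-group r used log2 of CPM plus 0.5. Skap1, Evx2 and Scnn1g were added as neighbours or position markers. Prac1 was not analysed here, and some genes of the lists are not reported here. Same-numbered libraries of Vehicle and MEKi 0.3 deviated together weakly (r = 0.126, 0.125, 0.167 and 0.184), and no other comparison met r over 0.1 in every pair. The labels name nothing that such libraries share, so it is not established that they are paired. The main tests use no pairing, and fits with the replicate number as a block are given below.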

Additional observations from a re-analysis of the deposited data

Results flagged for a closer look

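Among 78 sets of 4 libraries (13 Hox genes in 6 groups), 7 held a library far from the other 3, its gap to the nearest, as a share of the range, exceeding Dixon's 95% critical value; chance gives about 1 in 20. In MEKi 0.3, Hoxa5 was 15.4 CPM in replicate 4 against 11.9 to 12.3 in the others, and Hoxd10 was 7.17 CPM in replicate 3 against 0.248 to 1.37. In anti-TNF, Hoxa9 was 35.0 CPM in replicate 4 against 44.7 to 46.3, and Hoxb9 was 43.3 CPM in replicate 3 against 37.3 to 37.9. In Normal, replicate 2 had 38.7 CPM of Hoxb9 against 43.9 to 44.8 and 0 CPM of Hoxd12 against 2.05 to 2.26; it is the smallest library, at 3052940 counts, where 3 counts are 0.983 CPM. In Vehicle, Hoxd13 was 14.04 CPM in replicate 2 against 2.13 to 2.74.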

How the results depend on the processing

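Left out 1 library at a time, the number of Hox genes called was 5 to 9 in Vehicle against Normal (5 without Vehicle replicate 4), 2 to 7 in Isotype against Normal (2 without Normal replicate 4, 3 without Isotype replicate 1 or 3), 0 to 2 for MEKi 0.3, 0 to 1 for MEKi 1 and 0 elsewhere. No alternative reversed the direction of a gene examined. Without the libraries rich in pancreas transcripts, an alternative chosen after seeing the data, 5 and 3 Hox genes were called in Vehicle and Isotype against Normal; in Isotype, 3 were called from the 8 libraries of the comparison alone and 0 with the 2 libraries per group on which both labellings agree. For MEKi 0.3, DESeq2 called 1 and limma-voom 2; for MEKi 1 they called 2 and 5, the 8 libraries alone 2 and the length offset 1. Isotype against Vehicle gave 1 call by DESeq2, by limma-voom and from its 8 libraries alone. The causes were not tested. Over all genes, limma-voom called 3303 for MEKi 0.3 and 4807 for MEKi 1, where edgeR called 1 and 1565. With the replicate number as a block, 8 Hox genes were called in Vehicle against Normal (Hoxd10 was lost, adjusted p = 0.0524, edgeR), 5 in Isotype against Normal and 0 in the other comparisons; in a fit of only Vehicle and MEKi 0.3 with the block, 405 genes and 0 Hox genes were called. With the table's names for the antibody libraries, 4 Hox genes were called in Isotype against Normal. Shares of all genes are given above for the DESeq2 and limma-voom calls. For most other settings named here no such share is given, so their Hox counts are no measure of the family. Counts against Normal can include Hoxb5, Hoxd10 and Hoxd12, which entered the test largely through Normal.

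The share of Hox counts in paralog groups 9 to 13 was 88.9% in Normal, 81.6% in Vehicle, 86.2% in MEKi 0.3, 87.0% in MEKi 1, 84.2% in Isotype and 84.9% in anti-TNF. Per kb of transcript these shares were 82.3%, 68.7%, 76.7%, 77.6%, 72.8% and 74.2%, and without Hoxb13 they were 73.2%, 66.1%, 72.2%, 69.8%, 68.5% and 67.5%. Without 1 library they ranged over 87.9% to 89.8%, 80.5% to 83.3%, 84.4% to 89.3%, 86.6% to 87.4%, 83.0% to 85.3% and 84.2% to 85.9%. Low counts limit Hoxb5, Hoxd10, Hoxd12 and the 23 untested genes.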
